A study of Mus musculus with 25 samples.

Results

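The livers of old mice were compared by the genotype of the young mouse each had been joined to. In parabiosis a pair of mice is joined surgically so that they share a circulation. The 5 livers labelled O (Yg Het) came from C57BL/6 mice of 21 mo with a WT genotype, joined for 5 weeks to a young mouse heterozygous for Manf (genotype ManfHet, 5 mo). The 5 livers labelled O (YgWT) came from C57BL/6 WT mice of the same age, joined for the same time to a young WT mouse of 5 mo. They are called livers with a Het partner and livers with a WT partner below. Every old mouse compared was itself WT, so the genotype that differed was that of the other mouse. These 10 libraries are 10 of the 25 in the study, chosen by their labels and not by any measured value. The other 15 are 5 young Het livers, 5 young WT livers and 5 livers of old mice joined to an old mouse, and they enter through the shared estimate of spread and, for the young livers, a comparison of their own. Levels in the livers with an old partner are given for Manf and for the clock and ER chaperone lists. The matching of old to young animals within pairs, the Manf allele, the time of day of collection and the sex are not given in the sources used here. How much blood the partners exchanged was not measured in these files.

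Manf encodes mesencephalic astrocyte-derived neurotrophic factor, a small protein that resides in the lumen of the endoplasmic reticulum (ER) and is also secreted into blood. It belongs to the genes induced by the unfolded protein response, in which sensors in the ER membrane raise the transcription of chaperones when folding demand is high. Hepatocytes secrete most plasma proteins and so carry a large folding load, and liver transcription also follows the circadian clock and feeding. The comparison asks whether the Manf genotype of the young partner is reflected in gene expression of the old WT liver.

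Expression was deposited as RPKM, reads scaled by gene length and by the library's read total. The read totals behind the scaling were recovered from the spacing of low values and ran from 21.8 to 27.59 M reads in livers with a Het partner and from 24.28 to 26.95 M reads in livers with a WT partner. Albumin (Alb), the main liver plasma protein, took 17.0, 18.1, 14.1, 16.6 and 8.69% of the reads on genes in livers with a Het partner, against 4.12, 6.34, 6.00, 11.7 and 9.0% in livers with a WT partner (exact two-sided permutation test, p = 0.0238). The groups overlapped, with replicate 5 of the livers with a Het partner below replicates 4 and 5 of the livers with a WT partner. A larger share for Alb leaves a smaller RPKM for every other gene, and the median-of-ratios size factors, computed over the 12964 genes above 0 in every library, were 0.916, 0.895, 0.921, 0.851 and 0.985 in livers with a Het partner and 1.07, 1.09, 1.08, 0.986 and 1.06 in livers with a WT partner (exact p = 0.00794, the smallest that 5 against 5 can give). The comparisons are therefore given on 2 scales, as deposited and after dividing each library by its size factor (scaled). Scaling moved the median log2 difference of all genes from -0.14 to 0.04, a shift of 0.18. Replicate 4 of the livers with a WT partner held skeletal muscle RNA: Acta1 at 58.1, Ckm at 17.3 and Myh4 at 6.4 RPKM, against at most 0.188, 0.0135 and 0.00653 RPKM in the other 9 livers. Totals and the counts of several lists are also given with single livers left out. For single genes this is given only where stated.

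**Figure D1:**
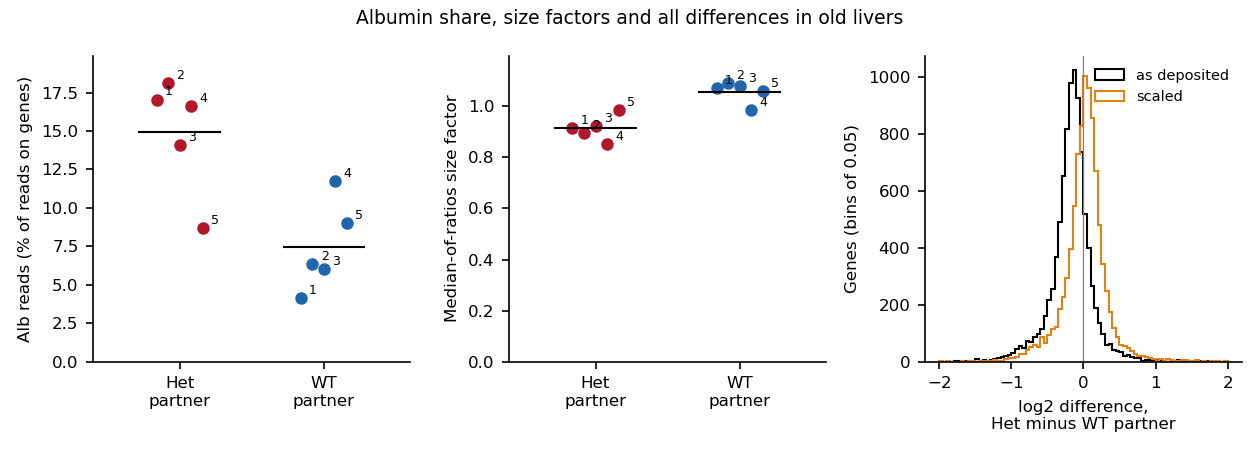
Left and middle panels: each point is 1 old liver, numbered by replicate, with Alb reads as a percent of reads on genes and the median-of-ratios size factor on the y axes, and bars at the group means. Right panel: numbers of genes (y axis) by log2 difference, Het minus WT partner (x axis), as deposited and scaled; the deposited differences centre below 0, with a median of -0.14, and the scaled ones at 0.04.

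Manf itself was lower in old WT livers with a Het partner, although these livers carry both copies of the gene. It measured 8.35, 6.52, 4.96, 6.24 and 9.52 RPKM with a Het partner, against 17.4, 17.8, 13.7, 20.3 and 18.9 RPKM with a WT partner. The groups did not overlap on either scale, which as deposited also held for 1420 of the 9372 tested genes (15.2%). The log2 difference was -1.27 ± 0.23 (SE) as deposited (adjusted p = 0.000671) and -1.07 scaled, and the exact permutation test gave p = 0.00794 on each scale. Old livers joined to an old partner, which were also WT, averaged 8.86 RPKM. Manf lies on the minus strand of chromosome 9. In the young livers, where the genotype itself differs, the log2 difference of Manf was -1.60, Het minus WT.

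Of the 9372 genes tested with limma on log2(RPKM + 0.5), 288 were higher (3.07%) and 2777 lower (29.6%) with a Het partner as deposited, at a Benjamini-Hochberg adjusted p under 0.05. After scaling 1163 were higher (12.4%) and 739 lower (7.89%). The split of higher against lower calls thus depended on the scale. With only the reads of Alb left out of each library's total, 396 were higher and 1618 lower. All 288 deposited higher calls passed when scaled, all 739 scaled lower calls passed as deposited, and no gene was called in opposite directions. Because scaling shifted the differences upward, by 0.18 at the median, this nesting is no check of the calls. The higher set is simply the deposited calls and the lower set the scaled calls, so the 2 directions were held to different scales. These 288 (3.07%) and 739 (7.89%) genes, which passed on both scales, are the base of what follows, and "passed on both scales" refers to them. Of them, 148 higher and 315 lower genes also passed on both scales in each of the 10 fits that left out 1 old liver. Without replicate 4 of the livers with a Het partner, 1957 genes passed as deposited, against 3065 with all livers, and 1120 scaled, against 1902. Without replicate 2 of the livers with a WT partner, 1184 passed scaled.

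Both arms of the circadian clock differed, in opposite directions. In this loop BMAL1 (Arntl) and CLOCK drive transcription of their own repressors, the Period and Cryptochrome genes, and of output factors such as DBP and TEF, so the activating and repressing arms peak at opposite times of day. With a Het partner, 3 of the 6 tested genes of the activating arm passed on both scales as lower and 1 as higher. Of the 15 tested repressor and output genes, 12 passed on both scales as higher and none as lower, with a median log2 difference of 1.11 as deposited and 1.29 scaled, against -0.14 and 0.04 over all genes. When 1 old liver was left out, 10 to 12 were higher as deposited and 11 to 12 scaled. Mean log2 levels of each list were also taken per liver, as deposited, relative to the mean of livers with a WT partner. The repressor and output list was at 0.87 to 1.34 with a Het partner and 0.81 to 1.37 with an old partner. The activating arm was at -0.70 to -0.38 with a Het partner and -0.65 to -0.38 with an old partner. The contrast with the old-partner livers was not tested.

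In the activating arm, Arntl was at 0.125, 0.14, 0.0469, 0.0689 and 0.47 RPKM with a Het partner, against 1.71, 1.38, 2.73, 1.77 and 1.09 RPKM with a WT partner (log2 difference -1.73 ± 0.16 SE, adjusted p = 2.22e-06). Clock averaged 1.45 ± 0.478 RPKM with a Het partner and 3.32 ± 0.477 RPKM with a WT partner (SD, n = 5 each), a log2 difference of -0.99. No liver with a Het partner reached the lowest liver with a WT partner for either gene. Nfil3, a repressor of D-box promoters, fell by 0.95 on the log2 scale. Cry1 was not called (log2 -0.29, adjusted p = 0.235).

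Among the repressors, Per1 was at 6.16, 7.68, 9.48, 11 and 5.08 RPKM with a Het partner, against 1.71, 1.29, 1.5, 2.79 and 2.25 RPKM with a WT partner (1.78 ± 0.30, adjusted p = 0.000409). Per3 averaged 4.00 ± 1.18 RPKM with a Het partner and 0.970 ± 0.523 RPKM with a WT partner (SD, n = 5 each), a log2 difference of 1.64. Ciart, a repressor of CLOCK-BMAL1 activity, was at 6.87, 10.3, 10.9, 13.1 and 3.02 RPKM with a Het partner, against 0.182, 0.389, 0.233, 1.08 and 1.11 RPKM with a WT partner (3.04 ± 0.42, adjusted p = 7.86e-05). In all 3 genes every liver with a Het partner exceeded every liver with a WT partner, and replicate 5 was the lowest of the livers with a Het partner. Per2 rose by 1.11, Cry2 by 0.60 and Nr1d2 by 0.45 on the log2 scale, whereas Nr1d1, which encodes REV-ERB alpha, was at 30.0 ± 12.3 RPKM with a Het partner and 30.5 ± 7.69 RPKM with a WT partner (SD, n = 5 each; adjusted p = 0.808).

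Among the output genes, the PAR-domain factor Dbp was at 41.3, 43.2, 50.7, 37.9 and 36.8 RPKM with a Het partner, against 5.01, 12.9, 3.09, 14.2 and 22.1 RPKM with a WT partner, a log2 difference of 2.11. Its relatives Tef and Hlf rose by 1.16 and 0.55. The deubiquitinase gene Usp2 was at 7.52, 11.1, 12.3, 10.1 and 3.88 RPKM with a Het partner, against 0.864, 0.445, 0.516, 0.978 and 1.64 RPKM with a WT partner, a log2 difference of 2.74. Wee1, the mitotic kinase, rose by 1.96, and Bhlhe40, a repressor of E-box genes, by 0.66. Dbp, Usp2 and Wee1 did not overlap between the groups. Rgs16, the highest by the rule used to name genes, encodes a regulator of G-protein signalling that responds to feeding in liver. It was at 30.2, 96.1, 98.2, 102 and 34.6 RPKM with a Het partner, against 0.969, 4.42, 5.07, 14.2 and 11.6 RPKM with a WT partner (3.43 ± 0.89, adjusted p = 0.00676).

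**Figure D2:**
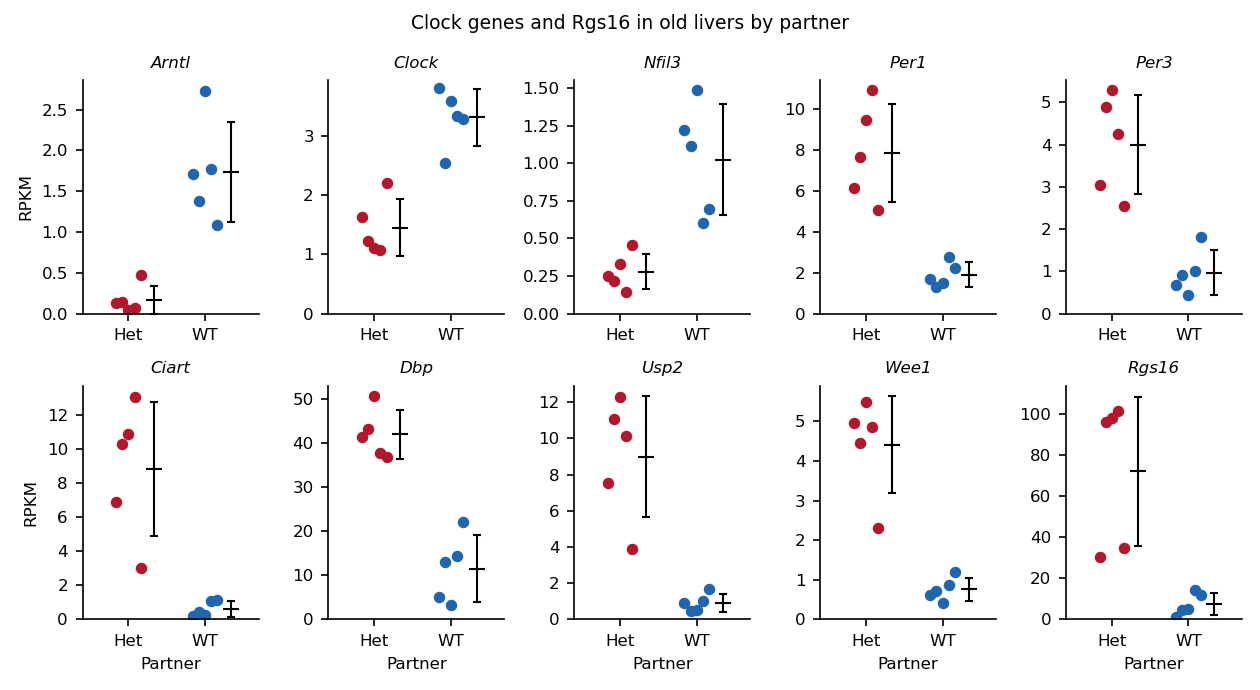
RPKM (y axes) of clock genes and Rgs16 in each old liver by partner (x axes), 1 point per liver, with the mean and SD beside the points. Arntl, Clock and Nfil3 are lower with a Het partner, and the other 7 genes are higher with no overlap in Per1, Per3, Ciart, Dbp, Usp2, Wee1 or Rgs16.

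The promoters of the tested clock genes, called or not, were read from RefSeq (GRCm38.p6, 250 bases before to 50 after each gene's start). They were searched on both strands for the E-box CACGTG, bound by CLOCK-BMAL1, and the D-box TTATGNAA, bound by DBP, TEF, HLF and NFIL3. An E-box was found in 3 of the 11 repressor and output genes with a promoter in the table (27.3%), against 8.09% of all 27025 promoters and 12.2% of the 7386 tested genes with one. A D-box was found in 2 of the 11 (18.2%), against 3.99% of all promoters and 2.88% of those of tested genes. The stretches below run 5′ to 3′ on each gene's own strand, with the motif in capitals, and are shown because these 4 genes hold a match and all rose. The positions are Per1 chr11:69098743-69098828 on the plus strand, Ciart chr3:95882299-95882384 on the minus strand, Tef chr15:81802506-81802591 on the plus strand and Per3 chr4:151044816-151044910 on the minus strand.
Per1: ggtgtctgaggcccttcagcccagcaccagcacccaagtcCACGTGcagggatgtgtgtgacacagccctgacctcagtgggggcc
Ciart: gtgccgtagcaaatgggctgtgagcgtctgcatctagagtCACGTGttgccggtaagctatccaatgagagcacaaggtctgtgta
Tef: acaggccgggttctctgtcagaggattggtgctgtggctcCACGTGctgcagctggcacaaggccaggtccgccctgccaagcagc
Per3: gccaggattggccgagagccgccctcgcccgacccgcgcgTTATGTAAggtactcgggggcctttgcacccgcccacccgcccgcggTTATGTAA

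ER chaperones and folding enzymes were lower with a Het partner. Of 27 tested, 17 were lower and none higher as deposited, and 10 passed on both scales as lower. The shares of lower genes over all tested genes were 29.6% and 7.89%. Their median log2 difference was -0.43 as deposited and -0.22 scaled, against -0.14 and 0.04 over all genes. The 10 are Manf, Hspa5, Calr, Pdia3, Pdia4, Pdia6, Dnajb11, Hyou1, Sdf2l1 and Creld2. When 1 old liver was left out, 16 to 18 passed as deposited and 7 to 11 scaled. Relative to the mean of livers with a WT partner, the list averaged -0.75 to -0.28 per liver with a Het partner, as deposited. In old livers with an old partner it averaged -0.51 to -0.12, and the contrast with these livers was not tested.

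Hspa5, which encodes the main ER Hsp70 (BiP) that holds the stress sensors inactive, was at 69.4, 57.5, 44.3, 61.8 and 71.5 RPKM with a Het partner, against 130, 128, 110, 135 and 130 RPKM with a WT partner (-1.07 ± 0.19, adjusted p = 0.000529). Creld2, an ER stress-induced protein with disulfide isomerase activity, was at 6.94, 4.89, 4.75, 7.0 and 8.21 RPKM with a Het partner, against 18.5, 19.9, 16.6, 17.5 and 18.5 RPKM with a WT partner, a log2 difference of -1.47. Sdf2l1, a cofactor of BiP, was at 4.36, 3.60, 2.98, 4.54 and 11.2 RPKM with a Het partner, against 16.7, 24.5, 18.2, 14.2 and 16 RPKM with a WT partner, a log2 difference of -1.78. None of the 3 overlapped between the groups. Calr, the lectin chaperone calreticulin, was at 109, 113, 95.0, 108 and 196 RPKM with a Het partner, against 265, 280, 241, 242 and 178 RPKM with a WT partner, and overlapped through replicate 5 of both groups. Hyou1, the nucleotide exchange factor of BiP, fell by 1.07 and the BiP co-chaperone Dnajb11 fell by 0.83 on the log2 scale. The isomerases Pdia4, Pdia3 and Pdia6 had log2 differences of -0.90, -0.75 and -0.75. Pdia6 passed in 2 of the 10 scaled fits that left out a liver. Hsp90b1, the ER Hsp90, had a log2 difference of -0.54 as deposited (adjusted p = 0.0106) and -0.33 scaled (adjusted p = 0.141), so its call was lost on scaling.

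The ER stress element, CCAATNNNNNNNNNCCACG on either strand, is the promoter sequence bound by ATF6 with NF-Y. It was present in 37 of all 27025 promoters (0.137%), in 15 of the 7386 tested genes with a promoter (0.203%), and in 7 of the 21 ER chaperone genes with one (33.3%). The 7 are Hspa5, Hsp90b1, Calr, Canx, Pdia6, Dnajc3 and Creld2. Of the 10 that passed on both scales, Hspa5, Calr, Pdia6 and Creld2 hold the element, and their stretches are shown with it in capitals, 5′ to 3′ on the gene's strand. Manf is among the tested chaperone genes without a promoter in the table, so it was not searched. The positions are Hspa5 chr2:34771985-34772083 on the plus strand, Calr chr8:84847035-84847133 on the minus strand, Pdia6 chr12:17266451-17266549 on the plus strand and Creld2 chr15:88819480-88819578 on the plus strand. In Calr and Creld2 the element reads as its reverse complement.
Hspa5: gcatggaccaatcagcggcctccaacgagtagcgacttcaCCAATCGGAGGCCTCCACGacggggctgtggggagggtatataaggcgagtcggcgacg
Calr: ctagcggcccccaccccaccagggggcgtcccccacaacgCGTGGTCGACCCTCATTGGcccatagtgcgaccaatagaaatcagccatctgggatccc
Pdia6: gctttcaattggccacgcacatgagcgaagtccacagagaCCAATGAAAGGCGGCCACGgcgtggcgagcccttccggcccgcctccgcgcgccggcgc
Creld2: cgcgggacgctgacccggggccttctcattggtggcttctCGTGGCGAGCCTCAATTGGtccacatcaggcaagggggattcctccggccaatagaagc

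The other ER lists had medians nearer 0 (-0.25, -0.32 and -0.12 as deposited, in the order given). Of 20 ER stress sensors and degradation genes, 9 were lower and 1 higher as deposited, and 4 were lower and 1 higher on both scales. The lower 4 are Atf6b, a relative of the sensor ATF6 (log2 -0.74), Edem1, which targets misfolded glycoproteins for degradation (-0.47), Derl3 of the retrotranslocation complex (-1.47) and the ubiquitin-conjugating enzyme gene Ube2g2 (-0.63). The higher member is Herpud1, an ER membrane component of the degradation complex, at 134 ± 37.6 RPKM with a Het partner and 92.6 ± 30.9 RPKM with a WT partner (SD, n = 5 each; adjusted p = 0.0353). Xbp1 was not called (log2 -0.42, adjusted p = 0.0711). Of 30 translocon and early secretory genes, 23 were lower as deposited and 6 on both scales, among them the signal peptidase subunit gene Spcs2 (-0.68), Rpn1 of the oligosaccharyltransferase (-0.60) and Sec61a1, the translocon pore (-0.45). Of 14 genes of the ATF4 integrated stress response, 2 were lower as deposited and none on both scales, with medians of -0.12 and 0.08. These ATF4 counts lie below the shares of lower genes over all tested genes (29.6% as deposited and 7.89% on both scales).

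**Figure D3:**
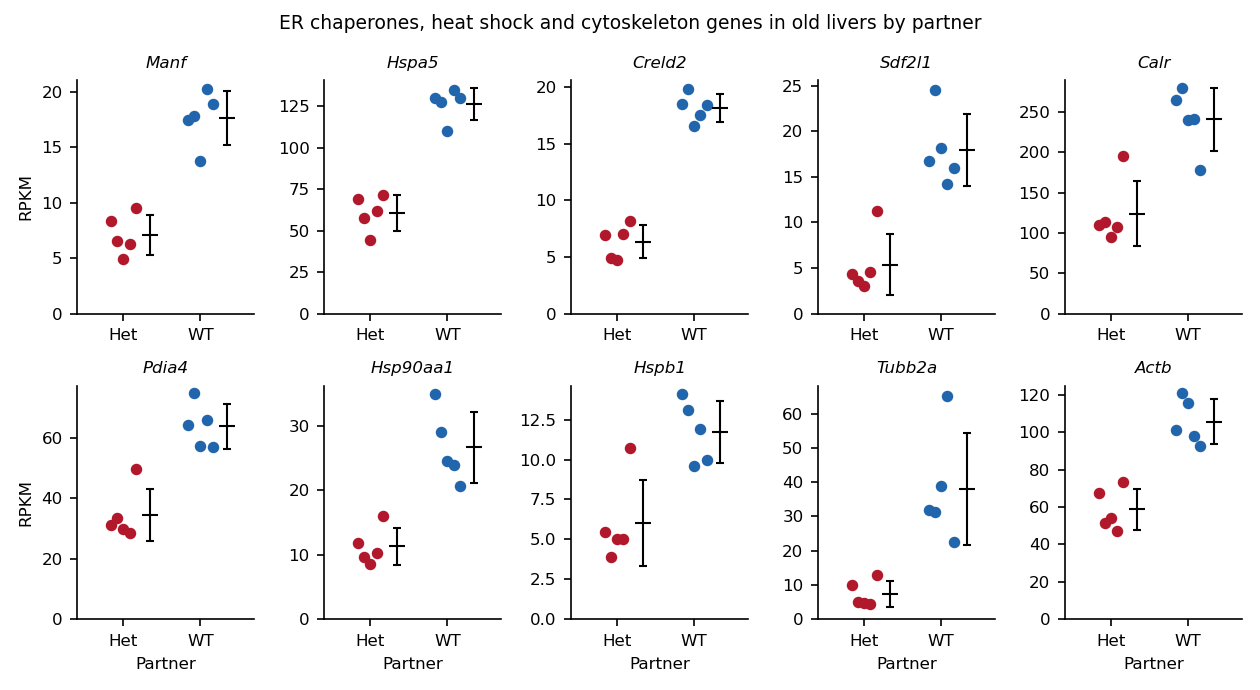
RPKM (y axes) of ER chaperone, cytosolic heat shock and cytoskeleton genes in each old liver by partner (x axes), 1 point per liver, with the mean and SD beside the points. All 10 genes are lower on average with a Het partner, and Calr and Hspb1 overlap through a liver with a Het partner.

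Cytosolic chaperones and cytoskeletal genes were lower as well. The shares over all tested genes, beside which their counts stand, were 29.6% lower as deposited and 7.89% on both scales. The medians over all genes were -0.14 and 0.04. Of 25 cytosolic heat shock genes, 16 were lower as deposited and 6 on both scales (Hsp90aa1, Hspb1, Hsph1, Stip1, Chordc1 and Cryab), with medians of -0.37 and -0.16. Scaled counts ran from 3 to 9 when 1 old liver was left out. Hsp90aa1, the inducible cytosolic Hsp90, was at 11.8, 9.68, 8.61, 10.3 and 15.9 RPKM with a Het partner, against 34.9, 29.1, 24.6, 23.9 and 20.7 RPKM with a WT partner (-1.21 ± 0.23, adjusted p = 0.000871). The small heat shock protein gene Hspb1 fell by 0.97 on the log2 scale, and the log2 difference of Hsph1, an Hsp110 exchange factor, was -0.94. Hspa8, the constitutive Hsp70, had a log2 difference of -0.37 as deposited (adjusted p = 0.0317) and -0.16 scaled (adjusted p = 0.411), and the stress-inducible Hspa1b was not called (-0.37, adjusted p = 0.233).

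A pair of inverted heat shock units, GAANNTTC, the binding sequence of HSF1, was found in 12 of the 19 heat shock genes with a promoter in the table (63.2%), against 9.04% of all promoters and 7.09% of those of tested genes. Hspb1, lower on both scales, and Fkbp4, a co-chaperone of Hsp90 that was lower as deposited (-0.53, adjusted p = 0.00859) and not when scaled (-0.33, adjusted p = 0.112), are shown with the motif in capitals, 5′ to 3′ on the gene's strand. The positions are Hspb1 chr5:135887762-135887849 on the plus strand and Fkbp4 chr6:128438760-128438847 on the minus strand.
Hspb1: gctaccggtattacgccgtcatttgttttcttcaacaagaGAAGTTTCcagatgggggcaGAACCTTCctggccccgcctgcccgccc
Fkbp4: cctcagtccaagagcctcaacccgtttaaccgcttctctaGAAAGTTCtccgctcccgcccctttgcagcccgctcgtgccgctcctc

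Of 16 cytoskeletal genes, 13 were lower as deposited and 9 on both scales, with medians of -0.70 and -0.49. Tubb2a, a beta-tubulin, was at 9.87, 5.10, 4.61, 4.40 and 12.9 RPKM with a Het partner, against 31.9, 31.3, 38.9, 65.1 and 22.4 RPKM with a WT partner (-2.32 ± 0.38, adjusted p = 0.000346). Actb, cytoplasmic beta-actin, averaged 58.7 ± 11.2 RPKM with a Het partner and 105.6 ± 12.2 RPKM with a WT partner (SD, n = 5 each; log2 -0.86). Neither gene overlapped between the groups. Tuba1a, Tuba1c, Vim, Tmsb4x, Tmsb10, Krt8 and Krt18 also passed on both scales. Actb, Vim, Tmsb4x and Tmsb10 are abundant in cells other than hepatocytes, and markers of those cells moved in the same direction, as described next. The part of those markers in the cytoskeleton, heat shock and ER results was not tested.

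Markers of the cells that line and surround the sinusoids were lower with a Het partner. For comparison, 29.6% of all tested genes were lower as deposited and 7.89% on both scales, with medians of -0.14 and 0.04. Of 22 markers of Kupffer cells, the resident liver macrophages, 17 were lower as deposited and 15 on both scales, and 1 was higher on both scales, with medians of -0.99 and -0.81. Of 18 monocyte and macrophage markers, 14 were lower as deposited and 10 on both scales. Of 23 stellate cell, fibroblast and collagen genes, 21 were lower as deposited and 14 on both scales, with medians of -0.77 and -0.67. Of 25 sinusoidal endothelial markers, 16 were lower as deposited and 11 on both scales, with medians of -0.58 and -0.42. In bulk liver RNA, fewer cells of a type and less RNA per cell cannot be told apart.

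The Kupffer cell markers included Adgre1 (F4/80) at 4.77, 3.80, 3.57, 0.822 and 3.73 RPKM with a Het partner, against 6.56, 15.1, 14.0, 5.35 and 9.23 RPKM with a WT partner (-1.49 ± 0.37, adjusted p = 0.00545). Cd5l, a secreted macrophage protein, averaged 33.0 ± 11.4 RPKM with a Het partner and 73.5 ± 21.5 RPKM with a WT partner (SD, n = 5 each; -1.19). The lectin receptor gene Clec4f fell by 0.84 and the growth factor receptor gene Csf1r fell by 1.05. Adgre1 did not overlap, and replicate 4 was the lowest liver with a Het partner for all 4 genes. The summed RPKM of the Kupffer list ran from 142.8 to 357.4 with a Het partner and from 381.1 to 660.4 with a WT partner.

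Among the stellate cell and matrix genes, Pdgfrb, the platelet-derived growth factor receptor of pericytes, was at 1.31, 1.04, 0.702, 0.460 and 1.57 RPKM with a Het partner, against 2.28, 3.00, 1.95, 2.11 and 1.85 RPKM with a WT partner (-0.89 ± 0.15, adjusted p = 0.000465). The collagen genes Col3a1 and Col4a1 fell by 1.01 and 1.05 on the log2 scale, and Ngfr, the nerve growth factor receptor of stellate cells, by 0.98. Among endothelial genes, Cdh5, the cadherin of endothelial junctions, averaged 3.75 ± 1.40 RPKM with a Het partner and 7.40 ± 0.520 RPKM with a WT partner (SD, n = 5 each; -0.97), and the scavenger receptor gene Stab2 fell by 0.67. Pdgfrb, Cdh5 and Stab2 did not overlap between the groups. Summed over all 34 members of the stellate list, tested or not, RPKM ran from 75.71 to 179.2 with a Het partner. With a WT partner it ran from 188.9 to 316.6. The 28 members of the endothelial list summed to 72.58 to 173.3 with a Het partner and 163.3 to 227.9 with a WT partner.

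These counts leaned on single livers. Without replicate 4 of the livers with a Het partner, the scaled counts of lower genes were 2 of 22 for Kupffer cells (median -0.56), 2 of 18 for monocytes (median -0.62), 10 of 23 for stellate cells (median -0.53) and 4 of 25 for endothelium (median -0.22). As deposited, the same omission left 12, 6, 14 and 15 lower. Without replicate 2 of the livers with a WT partner, the highest in several immune markers, the scaled counts were 4, 2, 10 and 12. Without replicate 4 of the livers with a WT partner, which held muscle RNA, they were 14, 10, 14 and 7. The medians stayed below 0 in each of these fits.

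**Figure D4:**
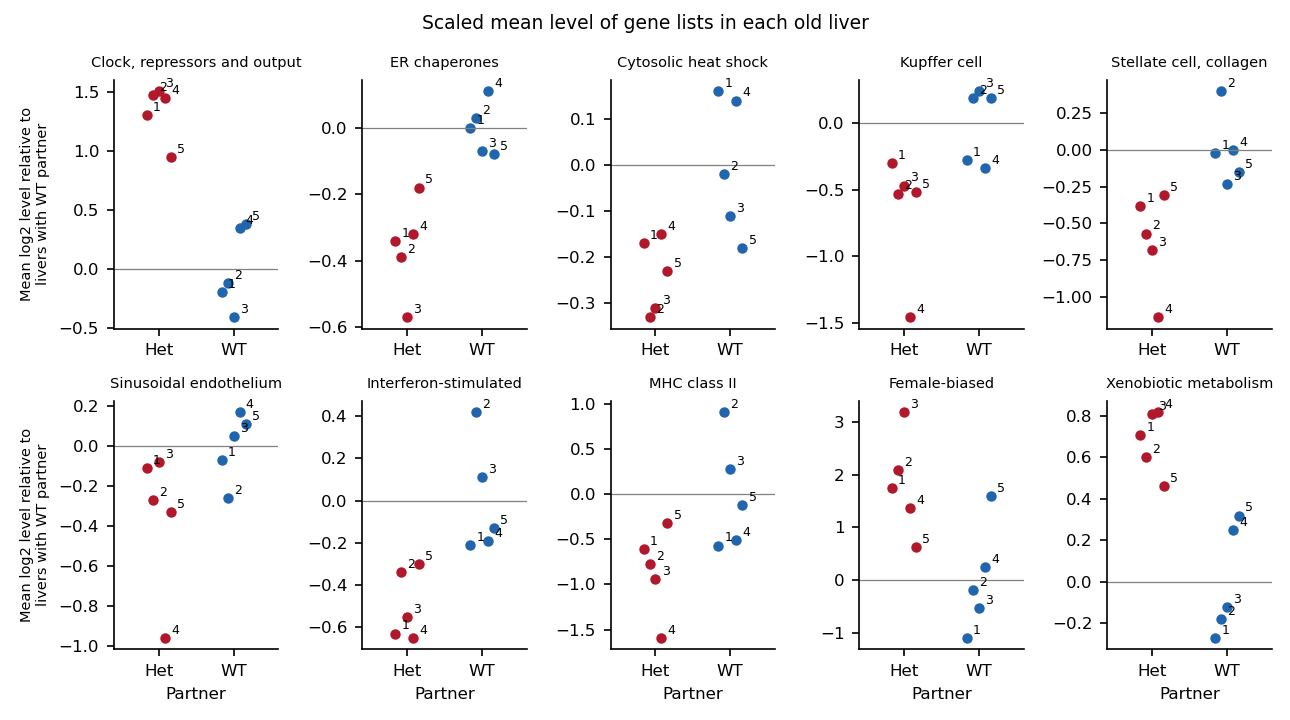
Mean scaled log2 level of the tested members of 10 gene lists in each old liver (y axes), relative to the mean of the livers with a WT partner, by partner (x axes), 1 numbered point per liver. Replicate 4 is the lowest of the livers with a Het partner for the Kupffer cell (-1.46), stellate cell (-1.14) and endothelial (-0.96) lists, and the clock output and ER chaperone lists separate the groups.

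Of 29 interferon-stimulated genes, 27 were lower as deposited and 10 on both scales, with medians of -0.62 and -0.48. Cmpk2, a mitochondrial nucleotide kinase induced by interferon, averaged 0.538 ± 0.247 RPKM with a Het partner and 1.82 ± 0.673 RPKM with a WT partner (SD, n = 5 each; -1.14), and the ubiquitin-like modifier gene Isg15 fell by 1.06. Without replicate 2 of the livers with a WT partner, 2 of the 29 were lower when scaled (median -0.36), and without replicate 4 of the livers with a Het partner 4 were (median -0.42). Of 15 interferon-gamma induced GTPase genes, 5 were lower as deposited and none on both scales. Of 20 chemokine genes, 4 were lower as deposited and 1 on both scales (medians -0.62 and -0.45). Of 23 MHC class I and antigen presentation genes, 5 were lower as deposited and 2 on both scales (medians -0.20 and 0.01). Over all tested genes 29.6% were lower as deposited and 7.89% on both scales. The chemokine and MHC class I counts lie near or below these shares. Of 7 MHC class II genes, 4 were lower as deposited and 1 on both scales. Cd74, the invariant chain, was at 32.6, 29.2, 24.2, 14.9 and 48.6 RPKM with a Het partner, against 39.1, 122.9, 78.6, 38.0 and 57.8 RPKM with a WT partner, overlapped, and lost its call when scaled (adjusted p = 0.0486 as deposited and 0.117 scaled). The neutrophil genes S100a8 and S100a9 fell by 1.35 and 1.57, and passed on both scales. The haemoglobin gene Hbb-bs had a log2 difference of -1.26 (adjusted p = 0.0432 as deposited, 0.109 scaled). The summed RPKM of 16 B and plasma cell markers, of which 6 were tested, ran from 34.63 to 54.71 with a Het partner. With a WT partner it ran from 45.64 to 79.47. The part of the macrophage and blood markers in the interferon and MHC results was not tested.

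Hepatocyte genes divided by program. Of all tested genes 3.07% were higher and 7.89% lower on both scales. The hepatocyte list itself had 4 of 24 higher and none lower as deposited, and 11 higher when scaled. Alb, the most abundant transcript, was 1.09 ± 0.27 higher (adjusted p = 0.00491). Of 13 female-biased genes repressed by the male growth hormone pattern, 9 were higher on both scales, with medians of 1.64 and 1.85, although the groups overlapped in each of the 13, against 15.2% of all tested genes in which they did not. Counts ran from 7 to 11 as deposited and from 6 to 11 scaled when 1 liver was left out. The P450 gene Cyp2a4 was at 7.48, 18.0, 96.1, 4.92 and 0.633 RPKM with a Het partner, against 0.0237, 0.815, 0.0433, 0.940 and 5.59 RPKM with a WT partner, a log2 difference of 2.94. Cyp2c69 was at 8.70, 11.2, 36.0, 13.5 and 5.11 RPKM with a Het partner, against 0.884, 1.12, 0.617, 1.17 and 11.1 RPKM with a WT partner, a log2 difference of 2.52. Replicate 5 of the livers with a Het partner was the lowest of its group, and replicate 5 of the livers with a WT partner the highest of its group, for both genes. Acot3, a peroxisomal acyl-CoA thioesterase, rose by 2.74 and the fatty acid hydroxylase gene Cyp4a10 by 1.64, with the same 2 livers nearest the other group in Acot3.

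Of 32 male-biased genes, 7 were lower and 1 higher as deposited, and 1 was lower and 1 higher on both scales, with medians of -0.45 and -0.24. The counts of lower genes lie below the shares over all tested genes (29.6% as deposited and 7.89% on both scales). The lower member is Elovl3, a fatty acid elongase that is also under clock control, at 4.00, 6.33, 7.30, 10.8 and 68.8 RPKM with a Het partner, against 101, 50.2, 107, 118 and 29.3 RPKM with a WT partner (-2.67 ± 0.56, adjusted p = 0.00173). It overlapped through replicate 5 of both groups. Among genes of the growth hormone and IGF axis, Prlr, the prolactin receptor, rose by 0.74 and Igfbp2, an IGF binding protein, by 0.98. The growth hormone receptor gene Ghr and Igf1 were not called as deposited (log2 0.05 and 0.11), and were when scaled (0.26 and 0.32).

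Of 31 xenobiotic metabolism genes, 13 were higher on both scales and none lower, with medians of 0.28 and 0.49. The nuclear receptor gene Nr1i3 (CAR) was at 78.4, 78.9, 84.1, 116.7 and 47.3 RPKM with a Het partner, against 21.2, 18.1, 23.7, 41.5 and 65.8 RPKM with a WT partner (1.36 ± 0.33, adjusted p = 0.00438). Cyp2a5 was at 454, 471, 793, 550 and 269 RPKM with a Het partner, against 46.7, 99.3, 56.8, 177 and 191 RPKM with a WT partner, a log2 difference of 2.29. Cyp2a5 did not overlap between the groups, and Nr1i3 overlapped through replicate 5 of both. Por, the electron donor of the P450 enzymes, rose by 1.15, Alas1, the rate-limiting enzyme of haem synthesis, by 1.62, and the bilirubin-conjugating enzyme gene Ugt1a1 by 0.89. Cyp2b10, a classical CAR target, was not called (0.27, adjusted p = 0.571).

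In glucose and bile acid metabolism, single genes were called in both directions. Of 25 glucose genes, 5 were higher and 1 lower on both scales. Gys2, liver glycogen synthase, was at 88.1, 80.2, 112, 118 and 73.7 RPKM with a Het partner, against 28.3, 33.3, 28.2, 48.5 and 44.6 RPKM with a WT partner (1.37 ± 0.22). The glucose transporter gene Slc2a2 rose by 0.73, while the glycogen-targeting phosphatase subunit gene Ppp1r3b fell by 1.16. G6pc, which releases free glucose, averaged 26.2 ± 13.1 RPKM with a Het partner and 66.4 ± 15.6 RPKM with a WT partner (SD, n = 5 each; adjusted p = 0.0182 as deposited, 0.05 scaled, where it missed the threshold), and passed in 1 of the 10 scaled fits that left out a liver. Pdk4, the kinase that shuts off pyruvate dehydrogenase, fell by 1.13. Of 23 bile acid genes, 3 were higher and 2 lower on both scales, with Nr0b2 (SHP), the repressor of bile acid synthesis, at 9.97 ± 1.64 RPKM with a Het partner and 28.3 ± 2.77 RPKM with a WT partner (SD, n = 5 each; -1.47). The rate-limiting enzyme gene Cyp7a1 was not called (1.36, adjusted p = 0.0758). Among all tested genes 3.07% were higher and 7.89% lower on both scales. The counts of lower glucose and bile acid genes lie near or below that share.

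In lipid metabolism, 4 of 25 cholesterol synthesis genes were higher on both scales and none lower (medians 0.27 and 0.48), and 5 of 25 lipogenic genes were higher and 1 lower on both scales. Sqle, squalene epoxidase of the cholesterol pathway, was not called (0.73, adjusted p = 0.244). Lpin1, a phosphatidate phosphatase, rose by 1.32, and Insig2, which retains SREBP in the ER, fell by 1.36. Of 33 PPARA and fatty acid oxidation genes, 5 were higher and 2 lower as deposited, and 16 were higher and 1 lower when scaled. Among all tested genes 3.07% were higher as deposited and 12.4% when scaled. Pdk4, lower as given above, also belongs to this list.

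For other lists the scale decided the count. Of 31 constitutive proteasome genes, 22 were lower as deposited and none when scaled (medians -0.21 and -0.01). Of 46 ribosomal protein genes none was called on either scale. Of 40 nuclear genes of the respiratory chain, 1 was lower as deposited and 8 were higher when scaled. Of 34 complement and coagulation genes, 2 were higher and 6 lower as deposited, and 12 were higher and 1 lower when scaled. Of 28 acute phase genes, 6 were lower and 1 higher as deposited, and 1 was lower and 1 higher on both scales.

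**Figure D5:**
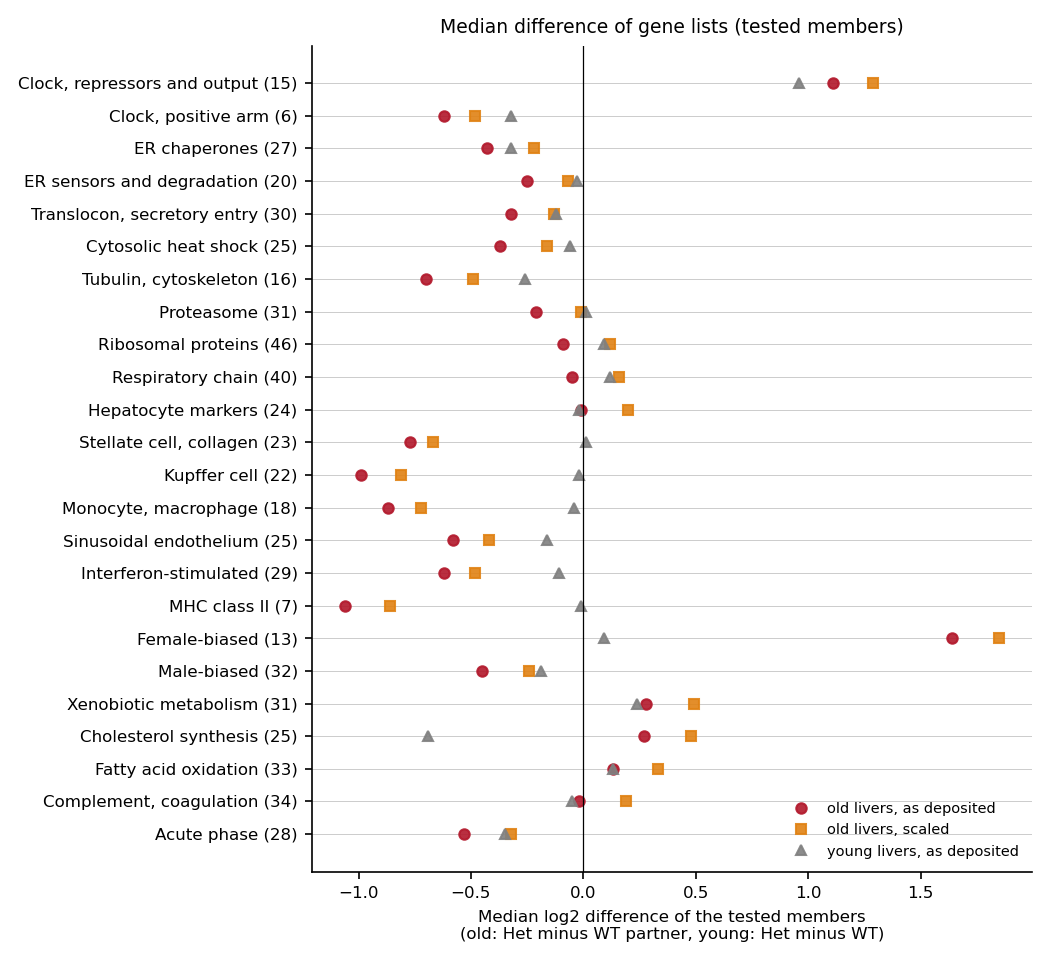
Median log2 difference (x axis) of the tested members of 24 gene lists, with the number of members in brackets, for old livers as deposited and scaled (Het minus WT partner) and for young livers as deposited (Het minus WT). The Kupffer, stellate and heat shock lists lie at -0.99, -0.77 and -0.37 in old livers as deposited and at -0.02, 0.01 and -0.06 in young livers.

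Some of the largest single differences fell outside these programs. Mt1, a zinc- and glucocorticoid-induced metallothionein, was at 34.9, 78.4, 100, 86.7 and 22.4 RPKM with a Het partner, against 11.8, 31.4, 9.40, 4.32 and 8.56 RPKM with a WT partner (2.34 ± 0.72, adjusted p = 0.0172). Chka, choline kinase alpha, averaged 1.09 ± 0.484 RPKM with a Het partner and 4.12 ± 1.06 RPKM with a WT partner (SD, n = 5 each; -1.55). Ddc, aromatic amino acid decarboxylase, fell by 1.69, St5 by 1.58, the sugar transporter gene Slc45a3 by 1.57 and the manganese exporter gene Slc30a10 by 1.36 on the log2 scale. Chka, Ddc and Slc45a3 did not overlap between the groups, while Mt1 did. Mt1, Derl3 and Adgre1 did not pass on both scales in every fit that left out 1 old liver. Cdkn1a, the cell cycle inhibitor p21, was at 0.284 ± 0.0393 RPKM with a Het partner and 1.26 ± 0.738 RPKM with a WT partner (SD, n = 5 each; -1.06, adjusted p = 0.00999). Lcn2, an acute phase protein of neutrophils and hepatocytes, was at 0.839, 1.58, 1.66, 1.34 and 2.76 RPKM with a Het partner, against 48.0, 12.1, 16, 1.87 and 2.08 RPKM with a WT partner, and lost its call when scaled (adjusted p = 0.0426 as deposited, 0.0832 scaled).

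The young livers allow the same contrast in the partners themselves, with no library in common. Of the 9372 genes, 349 were higher (3.72%) and 132 lower (1.41%) in young Het livers than in young WT livers as deposited, and 216 were higher (2.3%) and 211 lower (2.25%) when scaled. The deposited count of 481 was sensitive to single young livers, at 140 without young WT replicate 2, 238 without young WT replicate 3, 731 without young WT replicate 5, 167, 150 and 164 without young Het replicates 2, 3 and 4, and 829 without young Het replicate 5. Of the old-liver genes that passed on both scales, 111 of 288 higher and 78 of 739 lower genes were also called in young livers, always in the same direction. The same sign, called or not, was held by 263 of the 288 and 622 of the 739. Over all 9372 genes the old and young log2 differences as deposited correlated at 0.58. Old and young mice were joined, so this agreement is not independent support. In the clock, 10 of 15 repressor and output genes were higher in young Het livers as deposited and 9 when scaled (median 0.90 scaled), against 12 in old livers on both scales. Of the ER chaperones, 11 of 27 were lower in young Het livers on each scale (median -0.37 scaled), against 17 in old livers as deposited and 10 on both scales. Of the heat shock, Kupffer, monocyte, stellate and endothelial lists, no member was lower in young Het livers as deposited, and 1 endothelial gene was when scaled. The medians in young livers were -0.06, -0.02, -0.04, 0.01 and -0.16 as deposited and -0.12, -0.07, -0.08, -0.04 and -0.22 scaled.

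Cholesterol synthesis genes had medians of opposite sign at the 2 ages, with 9 of 25 genes lower and none higher in young Het livers on each scale (medians -0.69 and -0.74). The difference between the contrasts was tested gene by gene as an interaction, and 1 of 9372 genes passed as deposited and none when scaled, with 2937 and 826 at an unadjusted p under 0.05. That gene was Ngrn, which acts in mitochondrial ribosome assembly, at 5.55, 5.10, 5.88, 5.53 and 5.70 RPKM with a Het partner, against 6.54, 7.03, 7.23, 6.04 and 7.25 RPKM with a WT partner (interaction adjusted p = 0.0377). Its old-liver difference of -0.27 became -0.08 when scaled (adjusted p = 0.323), and it was 0.20 in young livers. With all livers the interaction passed for no gene of the lists, with adjusted p = 0.0559 for Pdgfrb, 0.0715 for Tuba1a and 0.0583 for Cyp2c69, and a lowest value of 0.243 in the clock output list.

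The interaction count hung on single livers and on how libraries were weighted. With all livers and a weight per library, 68 of the 9372 genes passed as higher and 1968 as lower in the old than in the young contrast as deposited. The lower ones held 11 of 22 Kupffer cell markers, 12 of 23 stellate cell and collagen genes, 9 of 29 interferon-stimulated genes, 3 of 25 heat shock genes, 1 of 27 ER chaperones and 1 of 25 endothelial markers, the higher ones 17 of 25 cholesterol synthesis genes, and neither held a clock output gene. The heat shock, ER chaperone and endothelial counts lie below the share of lower genes over all 9372. Without replicate 4 of the livers with a WT partner, the library with muscle RNA, 1234 genes passed as deposited and 18 scaled. Without replicate 5 of the livers with a Het partner 679 passed as deposited and 5 scaled, and without young Het replicate 5 914 passed as deposited. Without replicate 1 of the livers with a Het partner 17 passed, and without young WT replicate 4 12 passed. In the fit without the muscle-bearing library, 17 of 25 cholesterol synthesis genes passed as higher in the old than in the young contrast as deposited and 5 scaled, and 10 of 23 stellate cell and collagen genes passed as lower as deposited and none scaled. In that same fit no gene of the clock output or ER chaperone lists passed on either scale. Whether a list called in old livers and not in young livers differs between them therefore depended on the fit, and in the equal-weight fit with all livers it is not shown.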

How the data were processed

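Liver RNA was flash frozen, extracted with Trizol and made into stranded mRNA libraries, per the labels' protocols. STAR 2.4.2a, HTSeq and the mm10 build are named in the submitters' processing notes, and the strand setting of the counting is not given in the sources used here. The authors deposited RPKM values, of which 24107 rows were used. A row with a non-finite value and 24 rows whose names had become dates were left out. All 25 value columns matched a sample by name. Whole reads could be recovered from the deposited RPKM values for all 17838 genes above 0 (100% of values within 0.02 reads), and were used only for depths and as an alternative.

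The test was limma 3.58.1 (R 4.3.3) on log2(RPKM + 0.5) with an intensity trend, all 5 groups in 1 model (20 residual degrees of freedom), for genes at 1 RPKM or more in at least 5 libraries, with Benjamini-Hochberg adjustment over 9372 genes. Errors of log2 differences are SE. Fold changes on this scale understate those of low genes. Scaled values were divided by median-of-ratios size factors. The design text gives 5 animals per condition, so p-values measure the spread between animals. On simulated data for this comparison (9391 genes), 56.9% of genes changed by 0.5 log2 units were called, 92.4% at 1 and 98.5% at 2, with 4.7% false calls. The simulation changed 65 or 66 genes at each size, in both directions, with noise independent between genes and no shift in Alb share. Its false call rate therefore does not cover calls that follow the scale or a single liver.

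The genes and the 47 lists were chosen with earlier results of these data known, so no list is independent support. Named genes are Manf, the 15 largest differences in each direction, the 10 largest passing in every setting, up to 8 of lowest p in each list, and 6 of lowest interaction p in each direction. Nr1d1, Nr1d2, Cry2, Hlf, Bhlhe40, Pdia6, Hyou1, Hsp90b1, Herpud1, Xbp1, Hspa8, Hspa1b, Fkbp4, Stab2, Ghr, Igf1, Cyp2b10, Cyp7a1 and Sqle were named after their values were seen. Alternatives were other pseudocounts and filters, weights per library, the 10 livers alone, a replicate block, voom, and each liver left out. Leaving Alb out of the read total, and the scaled fits with a block or an omission, were chosen after seeing the data. A few genes of these lists are not reported here.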

Additional observations from a re-analysis of the deposited data

Results flagged for a closer look

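For the genes named in the text and the Alb share, each group of 5 old livers was searched for a liver far from the other 4 by Dixon's gap ratio (critical value 0.71). Of 220 such groups 20 held one, where chance gives about 1 in 20. Replicate 5 of the livers with a Het partner accounted for 8 and replicate 4 of that group for 7. Replicate 5 stood above its group in Arntl (0.47 RPKM), Calr (196), Pdia4 (49.7), Derl3 (1.37), Rpn1 (20.9), Insig2 (32.6) and Ddc (7.26), and below it in Wee1 (2.31). Each of these values lay on the side of the livers with a WT partner. It also had the lowest Alb share of its group (8.69%). Replicate 4 stood below its group in Adgre1 (0.822 RPKM), Cd5l (13.1), Clec4f (11.4), Csf1r (2.78), Stab2 (2.54) and Cry2 (5.93), and above it in Herpud1 (201). Its macrophage and endothelial values lay farther from the livers with a WT partner than those of the rest of its group.

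The remaining values were Cry1 in replicate 1 of the livers with a Het partner (1.92 RPKM), and, in livers with a WT partner, Ngfr in replicate 2 (2.92 RPKM), Hspa5 and Nr0b2 in replicate 3 (110 and 33.2 RPKM) and Cyp2c69 in replicate 5 (11.1 RPKM). Ngrn had an old-liver difference that was 0.47 below the young-liver difference on the log2 scale (-0.47, adjusted p = 0.0377), and this was not called when scaled or when most single livers were left out.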

How the results depend on the processing

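With all livers 3065 genes passed in old livers as deposited. The count was 1902 scaled, 1904 with voom on recovered reads, 1444 at 5 RPKM or more, 2014 with Alb removed from the total, and 1957 to 3486 with 1 liver left out. The pseudocounts, no filter, the 10 livers alone and weights per library kept it within 1.5 times. Scaled, the 1902 became 1120 to 2104 with 1 liver left out. The young-liver count of 481 was 279 with no filter, 1122 with weights, 173 with the 10 young livers alone and 140 to 829 with 1 liver left out. The interaction count of 1 was 0 scaled, 0 with voom, 0 with Alb removed, 6 with no filter, 2036 with weights and 0 to 1234 with 1 liver left out. Livers with the same number in the 2 old groups did not deviate together (correlations -0.091, 0.169, -0.009, 0.161 and -0.257, and 1 of 5 best with its own number), and the labels do not say that a number marks a pair. For old and young livers of one shared number the correlations were 0.232, -0.125, 0.197, -0.094 and 0.044 on the Het side and 0.077, 0.234, 0.263, 0.163 and 0.275 on the WT side, so not every one exceeded 0.1. With the block 2950 genes passed as deposited and 1786 with block and scaling, and the interaction count was 3 with the block and 0 with block and scaling.

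Of 109 genes named in the text, 96 kept direction and call when scaled, 10 lost and 2 gained the call, and Nr1d1, not called, changed sign. Nr1d1 was 0.13 scaled, 0.13 with voom, 0.13 with block and scaling, and from -0.28 to 0.13 with 1 liver left out. As deposited the block changed no call of a named gene. With block and scaling 91 kept direction and call, against 96 with scaling alone, and 15 lost it, against 10. Leaving out 1 old liver, as deposited, cost 1 to 9 of them the call, most often without replicate 3 of the livers with a WT partner (9) or replicate 4 of the livers with a Het partner (8). The causes of these changes were not tested. Cell composition, time of collection and which mice were joined were not measured in these files, and 5 livers a group limit what small differences could be called.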
